A study of Mus musculus with 12 samples.

Results

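The genes described here are the 43 mouse genes whose symbol begins with Nduf, the nuclear genes of mitochondrial complex I and of the factors that assemble it. They were chosen by name alone, as the Nduf loci marked as tested in each of 3 expression tables, and they made up 43 of 16012 tested loci at 2 h, 43 of 17143 at 24 h and 43 of 16769 at 7 d. By symbol, 11 of them (Ndufs and Ndufv) were taken as core subunits, 25 (Ndufa, Ndufab, Ndufb and Ndufc) as accessory subunits and 7 (Ndufaf) as assembly factors. RNA was sequenced from the prefrontal cortex (PFC) of male mice aged 10 weeks (strain C57BL/6 in the labels, C57BL/6 J in the methods), which had received 20 mg/kg of cocaine or saline by intraperitoneal injection once a day for 14 days. After the last injection 2 h, 24 h or 7 d passed before the PFC was taken, which gave 6 groups defined by drug and time. Each group was made of different mice, so the groups differed in more than drug and time. Tissue of 5 mice was pooled for every library, with 2 libraries in a group, for 12 libraries and 60 mice in all. The labels list 12 samples with replicate numbers but speak of only 6 cDNA libraries, where the methods describe 2 libraries per group, so how many libraries stand behind each pooled value is not certain. The deposited tables hold 1 pooled FPKM (fragments mapped to a gene, scaled to its transcript length and to the size of the library) for each group, so the spread between libraries and mice is unknown here, no difference below was tested against it, and no p-value is given. The tables hold no read counts, and the depth behind each FPKM is therefore also unknown.

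Complex I (NADH:ubiquinone oxidoreductase) is the entry point of electrons from NADH into the respiratory chain. Its matrix arm oxidises NADH and passes the electrons along a row of iron-sulfur clusters to ubiquinone, and its membrane arm pumps protons across the inner mitochondrial membrane. The catalytic subunits of the matrix arm are encoded in the nucleus, the central membrane subunits in mitochondrial DNA, and a shell of accessory subunits stabilises the enzyme, while the assembly factors help to build it and are not part of the finished complex. Neurons depend strongly on oxidative phosphorylation for ion pumping and synaptic transmission. Symbols do not follow function throughout. Ndufs4, Ndufs5, Ndufs6 and Ndufv3 are accessory in the structure of the enzyme although their names put them with the core, Ndufa4 is now counted with complex IV, Ndufa4l2 is its paralog, and Ndufab1 is the mitochondrial acyl carrier protein.

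Promoters are shown for the 2 Nduf genes with the lowest ratio of cocaine to saline at 7 d and the 2 with the highest, so that the regulatory sequence of both ends of the range can be read beside the values that follow. The windows run from 250 bases before to 50 bases after the RefSeq start site and were taken from RefSeq on GRCm38.p6. They lie at chr3:32736813-32737112 (plus strand) for Ndufb5, chr4:24897833-24898132 (plus strand) for Ndufaf4, chr6:126849095-126849394 (minus strand) for Ndufa9 and chr17:24724374-24724673 (minus strand) for Ndufb10. Each is printed 5′ to 3′ on the strand of its gene, and capitals mark matches to the motifs listed after the sequences.
Ndufb5: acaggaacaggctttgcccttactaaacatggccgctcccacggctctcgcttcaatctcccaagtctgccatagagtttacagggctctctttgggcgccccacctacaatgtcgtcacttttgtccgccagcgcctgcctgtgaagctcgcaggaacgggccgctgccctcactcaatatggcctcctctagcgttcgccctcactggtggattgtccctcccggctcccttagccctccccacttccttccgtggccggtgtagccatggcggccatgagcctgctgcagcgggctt
Ndufaf4: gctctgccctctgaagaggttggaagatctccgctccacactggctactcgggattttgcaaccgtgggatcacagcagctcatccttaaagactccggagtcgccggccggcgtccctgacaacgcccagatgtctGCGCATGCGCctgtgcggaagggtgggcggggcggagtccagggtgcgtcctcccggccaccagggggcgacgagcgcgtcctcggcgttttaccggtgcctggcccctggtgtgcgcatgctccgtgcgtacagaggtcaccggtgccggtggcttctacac
Ndufa9: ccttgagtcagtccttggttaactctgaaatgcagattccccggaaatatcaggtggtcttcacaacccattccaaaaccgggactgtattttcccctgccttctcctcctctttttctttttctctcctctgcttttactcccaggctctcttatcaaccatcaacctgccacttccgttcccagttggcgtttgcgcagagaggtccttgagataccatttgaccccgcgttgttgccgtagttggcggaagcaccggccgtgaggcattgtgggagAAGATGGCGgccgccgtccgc
Ndufb10: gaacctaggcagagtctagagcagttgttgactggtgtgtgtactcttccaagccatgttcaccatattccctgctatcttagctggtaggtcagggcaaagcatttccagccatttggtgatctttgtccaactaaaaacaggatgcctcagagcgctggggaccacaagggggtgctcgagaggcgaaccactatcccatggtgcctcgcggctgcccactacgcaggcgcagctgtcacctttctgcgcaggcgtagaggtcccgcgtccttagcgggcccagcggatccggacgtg
The motifs searched on both strands were GCGCATGCG (NRF-1), AAGATGGCG (YY1), CCGGAAGT (ETS factors), TCAAGGTCA (ERR), GGGGCGGGG (SP1) and TATAAA. Ndufaf4 held the NRF-1 motif on its own strand at -113 and, overlapping it, on the opposite strand at -112, and Ndufa9 held the YY1 motif from base 30 of the transcript. Ndufb5 and Ndufb10 held none of these letters in the window. Promoters were given for 37 of the 43 genes. The NRF-1 motif was in 4 of them (Ndufa8, Ndufa11, Ndufaf4 and Ndufaf5), 10.8% against 1.75% of all 32851 promoters of the same length. The YY1 motif was in 5 of them (Ndufa9, Ndufc1, Ndufs4, Ndufs6 and Ndufs7), 13.5% against 1.40%. The ETS motif was in 1 (Ndufs3; 2.70% against 3.89%), the ERR motif in 0 (against 0.423%), the SP1 motif in 6 (16.2% against 11.4%) and the TATAAA motif in 4 (10.8% against 13.6%). At 7 d the median log2 ratio was -0.27 over the genes with the NRF-1 motif and -0.29 over those without it, and -0.21 with and -0.29 without the YY1 motif.

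All 43 genes were measured in all 6 groups, and their levels spanned a 147-fold range. Ndufa4 had the highest mean over the 6 groups (508 FPKM), followed by the membrane arm subunits Ndufb9 (282 FPKM) and Ndufa3 (244 FPKM). At the other end were Ndufa4l2 (3.45 FPKM) and the assembly factors Ndufaf6 (5.05 FPKM) and Ndufaf4 (8.88 FPKM). The median of these means was 96.1 FPKM over the core class, 111 FPKM over the accessory class and 11.1 FPKM over the assembly factors. The highest assembly factor, Ndufaf3 (32.9 FPKM), stayed below the lowest core gene, Ndufs4 (41.4 FPKM). The order of the genes by level was nearly the same in every group, with a Spearman correlation across the 43 genes between 0.981 and 0.993 for each of the other 5 groups against saline at 2 h. These points share the length and composition of the same transcripts.

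At 2 h after the last injection the Nduf genes were at nearly the same level in cocaine and saline mice. A difference was counted only where the ratio of FPKM + 0.1 reached 1.2-fold, a size limit and not a test (log2 0.26). By that limit 0 of 43 genes were lower in cocaine, where 7.87% of all 13705 loci with a mean FPKM of at least 1 were lower, and 0 of 43 were higher, where 10.8% of loci were. The median log2 ratio of cocaine to saline was 0.0043 over the Nduf genes and 0.023 over all loci, and 19 of 43 genes lay below 0 (43.9% of loci). The largest differences belonged to genes of low level and to Ndufa3. Ndufaf4 was at 9.43 FPKM in saline and 7.90 in cocaine (a log2 ratio of -0.25), Ndufaf6 at 4.39 and 5.10 (0.21) and Ndufa3 at 207 and 235 (0.18).

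At 24 h a single gene passed the limit. Ndufa4l2 was at 4.19 FPKM in saline and 3.03 in cocaine (a log2 ratio of -0.45), which made 1 of 43 genes lower against 6.1% of loci, and 0 of 43 genes were higher against 6.62% of loci. The saline value of Ndufa4l2 at 24 h was itself the highest of its 6 values, the other 5 lying between 3.03 and 3.57 FPKM. The median log2 ratio was -0.020 over the Nduf genes and 0.0087 over all loci, and 28 of 43 genes lay below 0 (47.0% of loci). Ndufaf4 (9.65 FPKM in saline, 8.47 in cocaine, log2 ratio -0.19) and Ndufaf6 (5.30 and 4.74, log2 ratio -0.16) came next and did not reach 1.2-fold.

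At 7 d most Nduf genes were lower in cocaine than in saline mice. The limit was passed by 22 of 43 genes in the lower direction, where 12.5% of all 13805 loci passed it, and by 0 of 43 in the higher direction, where 8.58% of loci did. With the trend of the ratio with transcript length taken out, as described further on, 5 genes stayed past the limit (5.51% of loci) and the median log2 ratio went from -0.27 to -0.11. Of the 43 genes, 42 lay below 0 (52.5% of loci), and the exception, Ndufb10, was at 119 FPKM in saline and 120.2 in cocaine (a log2 ratio of 0.011). Without that correction the median was -0.27 over the Nduf genes and -0.012 over all loci. The gene just inside the limit was Ndufa11 (19.9 FPKM in saline and 16.6 in cocaine, log2 ratio -0.27) and the gene just outside it was Ndufaf7 (11.96 and 10.1, log2 ratio -0.24). No gene reached 1.2-fold at more than 1 time. Below 0 at all 3 times lay 14 of 43 genes, and the share of all loci that did so was not computed. Across the 43 genes the Spearman correlation of the ratios was 0.28 between 2 h and 7 d. It was 0.16 between 2 h and 24 h and 0.11 between 24 h and 7 d. The plot of the ratios by gene shows the 7 d values apart from the earlier ones for most genes.

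**Figure D1:**
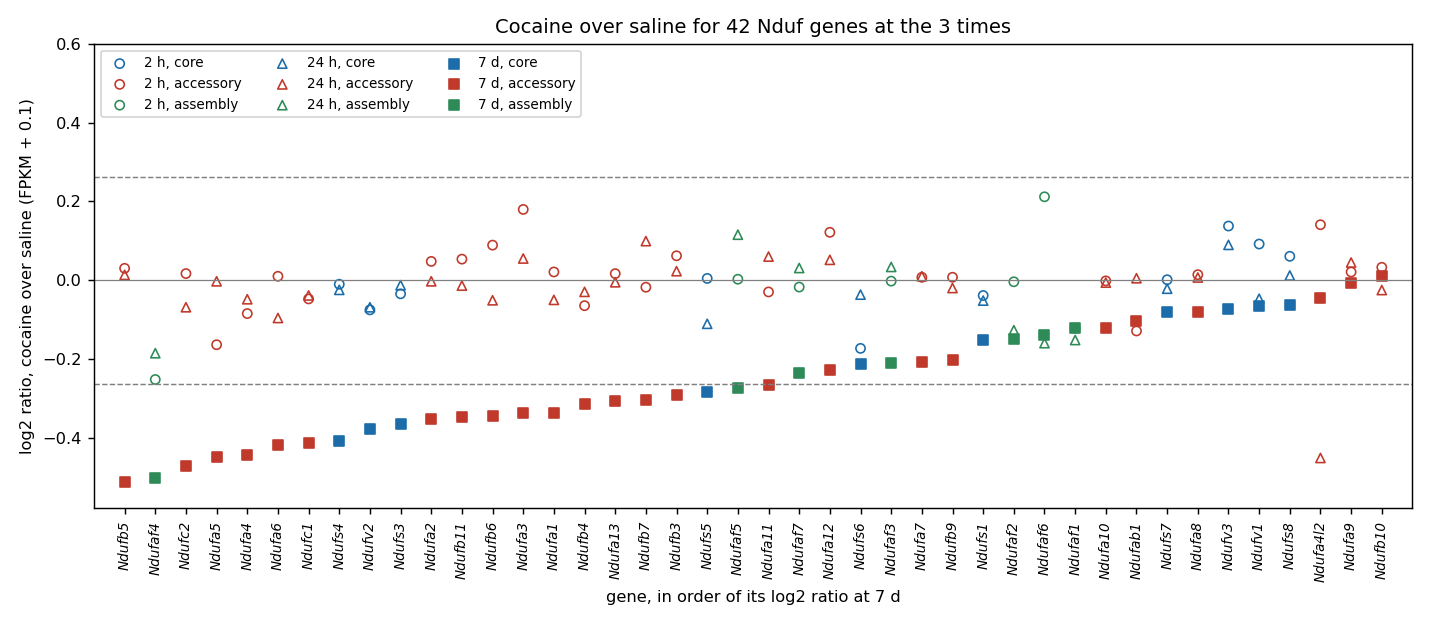
The vertical axis is the log2 ratio of cocaine to saline (FPKM + 0.1) and the horizontal axis lists 42 of the Nduf genes in order of their ratio at 7 d (filled squares), with 2 h as open circles and 24 h as open triangles, coloured by class. The dashed lines mark 1.2-fold. The squares run from -0.51 for Ndufb5 to 0.011 for Ndufb10, with 22 at or below the lower line, whereas 0 circles and 1 triangle (Ndufa4l2) lie there.

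Among the core genes, 4 of 11 were lower by 1.2-fold at 7 d (12.5% of loci). All 11 lay below 0 (52.5% of loci), with a median log2 ratio of -0.19. The 4 were Ndufs3, Ndufs4, Ndufs5 and Ndufv2. Ndufs4, an accessory subunit needed for a stable matrix arm and mutated in Leigh syndrome, stood at 37.5 and 37.2 FPKM in saline and cocaine at 2 h, at 37.6 and 36.9 at 24 h, then at 56.8 and 42.7 at 7 d (log2 ratio -0.41). Both of its 7 d values were above its values at the earlier times, and the saline value was the highest. Ndufv2, which carries an iron-sulfur cluster beside the NADH site, stood at 107 and 102 FPKM at 2 h, 102 and 96.8 at 24 h, then 124 and 95.6 at 7 d (log2 ratio -0.38). Ndufs3, a catalytic subunit without a cluster of its own, stood at 96.6 and 94.3 FPKM at 2 h, 96.4 and 95.5 at 24 h, then 116 and 90.1 at 7 d (log2 ratio -0.36). For both, saline at 7 d was the highest value and cocaine at 7 d the lowest.

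Of the 7 catalytic subunits, Ndufv2 and Ndufs3 passed the limit and the other 5 did not, and the median of the 7 was -0.15. Ndufs1, the largest iron-sulfur subunit, was at 52.8 FPKM in saline and 47.5 in cocaine at 7 d (log2 ratio -0.15). Ndufs7 and Ndufs8, which carry the clusters that lead to ubiquinone, had log2 ratios of -0.081 (106 and 99.8 FPKM) and -0.063 (88.1 and 84.4 FPKM). Ndufv1, which binds NADH and the flavin, had a log2 ratio of -0.066 (78.9 and 75.4 FPKM). At 2 h and 24 h the 7 ratios lay between -0.076 and 0.092. The other 4 genes of the core class had a median of -0.25 at 7 d, with Ndufs5 (217 and 178 FPKM, -0.28) and Ndufs4 past the limit, and with Ndufs6 (98.8 and 85.2 FPKM, -0.21) and Ndufv3 (97.1 and 92.3 FPKM, -0.074) short of it.

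The accessory class had the lowest median of the 3 at 7 d (-0.31), with 16 of 25 genes lower by 1.2-fold (12.5% of loci). Below 0 were 24 of 25 (52.5% of loci). With the length trend taken out, as described further on, the class medians were -0.11 (accessory), -0.053 (core) and -0.033 (assembly). Its lowest genes were Ndufb5, Ndufc2 and Ndufa5. Ndufb5, a membrane arm subunit, stood at 132 and 135 FPKM in saline and cocaine at 2 h, 125 and 126 at 24 h, then 171 and 120.1 at 7 d (log2 ratio -0.51). Ndufc2, also of the membrane arm, stood at 138 and 139 FPKM at 2 h, 155 and 148 at 24 h, then 194 and 140.02 at 7 d (log2 ratio -0.47). Ndufa5, of the matrix arm, stood at 154 and 138 FPKM at 2 h, 151 and 150.5 at 24 h, then 201 and 147 at 7 d (log2 ratio -0.45). In all 3 the saline value at 7 d was the highest of the 6. The other end of the class was held by Ndufb10 and by Ndufa9, which sits where the arms meet and was at 62.5 FPKM in saline and 62.1 in cocaine (a log2 ratio of -0.0083).

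Ndufa4, the most abundant of the genes, stood at 488 and 460 FPKM at 2 h, 480.4 and 465 at 24 h, then 668 and 490.4 at 7 d (log2 ratio -0.45). Without Ndufa4, Ndufa4l2 and Ndufab1, the median over the remaining genes at 7 d was again -0.27, with 21 of them lower by 1.2-fold. Within the class the Ndufa and Ndufab genes had a median of -0.27 (8 of 15 past the limit), the Ndufb genes -0.31 (6 of 8) and the 2 Ndufc genes -0.44 (2 of 2). Grouped by position in the enzyme instead of by name, 16 matrix arm genes had a median of -0.21 (6 past the limit). The 17 membrane arm genes had a median of -0.31 (13 past the limit), where 12.5% of all loci passed it. The ranges of these groups overlapped, from -0.45 to -0.0083 in the matrix arm and from -0.51 to 0.011 in the membrane arm. The difference between the arms was not tested because genes are not replicates of a condition. With the length trend taken out, as described further on, Ndufs4 and Ndufv2 of the matrix arm stayed past the limit. Of the membrane arm, Ndufb5 and Ndufc1 did. Ndufa13, whose row also names Yjefn3 at 2 h and 24 h, was at 102 and 103 FPKM at 2 h, 106 and 105 at 24 h, then 115 and 93.2 at 7 d (log2 ratio -0.31).

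Of the 7 assembly factors, 2 were lower by 1.2-fold at 7 d (12.5% of loci). All 7 lay below 0 (52.5% of loci), with a median log2 ratio of -0.21. Ndufaf4, which acts early in assembly together with Ndufaf3, stood at 9.43 and 7.90 FPKM at 2 h, 9.65 and 8.47 at 24 h, then 10.5 and 7.35 at 7 d (log2 ratio -0.50). Its cocaine value was below its saline value at all 3 times and all 3 cocaine values lay below all 3 saline values, a pattern read from 6 pooled values. Ndufaf5, which hydroxylates an arginine of Ndufs7, was at 24.9 FPKM in saline and 20.6 in cocaine at 7 d (log2 ratio -0.27). Ndufaf1, a member of the assembly complex of the membrane arm, was at 11.5 and 10.5 FPKM (-0.12), and Ndufaf6 at 5.66 and 5.13 FPKM (-0.14).

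Read across the 6 groups rather than within each time, most Nduf genes had their highest value in saline mice at 7 d. Most genes of complexes III, IV and V did too, as given further on. Saline at 7 d was the highest of the 6 values in 34 of 43 genes, against 25.7% of 12958 loci. These were the loci tested in all 3 tables, 1 per gene, with a mean FPKM of at least 1 over the 6 groups. By class the count was 7 of 11 core genes, 21 of 25 accessory genes and 6 of 7 assembly factors. From saline at 2 h to saline at 7 d the median log2 difference was 0.22 over the Nduf genes and -0.0035 over all loci, and 17 of 43 genes were higher by 1.2-fold against 12.6% of loci, with 0 lower. Over all loci this difference went with transcript length (Spearman correlation -0.47), and Nduf transcripts are short. The Nduf values of this comparison were not corrected for length. Ndufs4 had the largest difference between these 2 saline groups (log2 0.60), ahead of Ndufa6 (0.51) and Ndufb6 (0.51).

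The difference between 2 h and 7 d was smaller in the cocaine groups, and with 1 pooled value per group this contrast of contrasts was not tested. From cocaine at 2 h to cocaine at 7 d the median log2 difference was 0.019 over the Nduf genes (-0.037 over all loci), with 0 of 43 genes higher by 1.2-fold against 8.66% of loci, and 0 lower. From saline at 2 h to saline at 24 h the median was 0.024, with 3 of 43 genes higher against 9.92% of loci and 1 lower. Set against the range of the 4 groups at 2 h and 24 h, saline at 7 d lay above that range in 34 genes, within it in 8 and below it in 1 (Ndufa10). Cocaine at 7 d lay within that range in 21 genes, above it in 11 and below it in 11. The shares of all loci above, within and below that range were not computed for either group. The 3 tables were made separately from different mice, and with 1 pooled value per group the time, the mice and the table cannot be told apart. Comparisons that use saline at 7 d share those libraries, so the ratio of cocaine to saline at 7 d and the difference of saline at 7 d from saline at 2 h are not independent of each other.

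**Figure D2:**
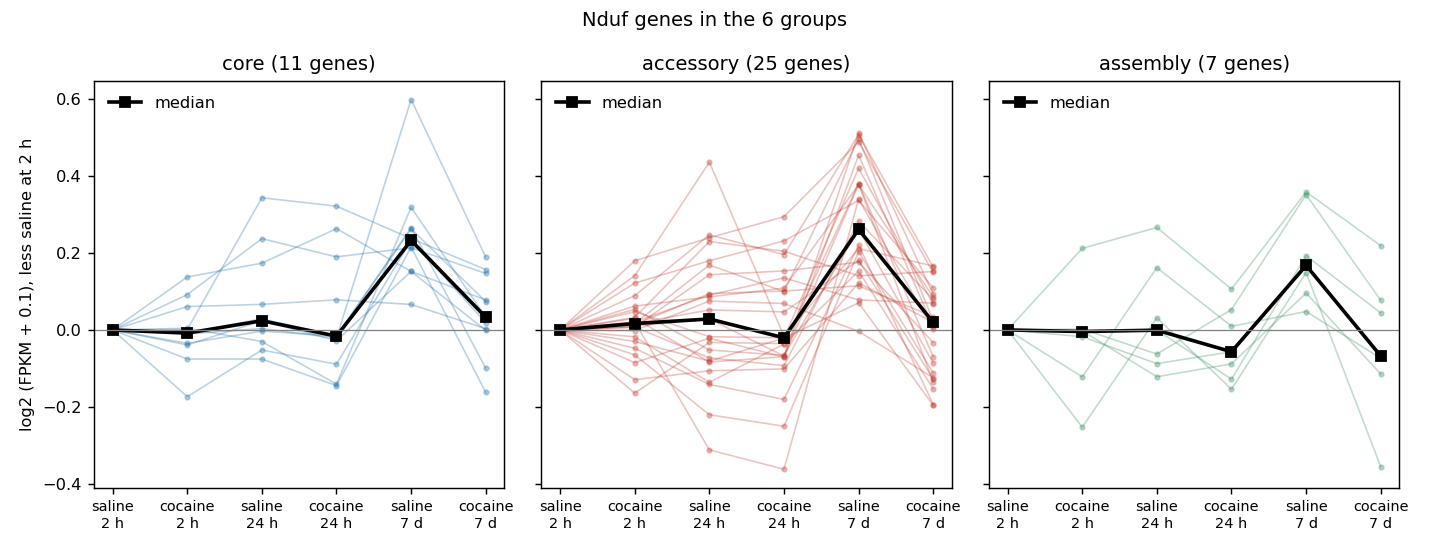
The vertical axis is the log2 of FPKM + 0.1 less its value in saline at 2 h, and the horizontal axis gives the 6 groups, with 1 panel for each class. Thin lines are genes and the black line is the class median, which at saline 7 d stands at 0.23 for core genes, 0.26 for accessory genes and 0.17 for assembly factors, and at cocaine 7 d at 0.033, 0.019 and -0.068.

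The 3 tables were also put on other common scales. In one, each group was scaled by its median ratio over loci tested in all 3 tables. Saline at 7 d was then the highest group in 36 of 43 genes, against 27.2% of 12958 loci. Its median difference from saline at 2 h was again 0.22 over the Nduf genes. Scaling to an equal sum of FPKM gave no usable order, because 10 loci held between 55.4% and 88.5% of the summed FPKM of a group and the highest, Mir320 or Trbc2, reached between 235322 and 3470000 FPKM. That scaling moved the median of all loci by between -1.24 and 0.84 on the log2 scale and made saline at 24 h the highest group in 43 of 43 genes and in 98.6% of loci. Because 1 factor rescales every locus of a group, the Nduf median relative to the median of all loci could change only through the pseudocount. Under this scaling that relative median was 0.22 in saline at 7 d and 0.024 in cocaine at 7 d, which is no separate check.

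The ratio at 7 d also went with transcript length over all loci. Across loci with a length (the longest coding transcript of the gene), the Spearman correlation of length with the log2 ratio was 0.47 at 7 d (11986 loci), 0.15 at 2 h (11987 loci) and 0.088 at 24 h (12314 loci). Nduf transcripts are short, with a median of 983 nt against 3049 nt over all loci, and accessory transcripts (861 nt) were shorter than those of core genes (1534 nt) and assembly factors (1478 nt). The median log2 ratio of the Nduf genes at 7 d was -0.34 over the 12 genes under 700 nt, -0.21 over the 15 from 700 to 1200 nt and -0.21 over the 16 above 1200 nt. With the median of loci of like length taken away (20 groups of length), the Nduf median at 7 d was -0.11. Below 0 lay 30 of 43 genes, where by construction about as many of all loci lie below 0 as above it. Higher by 1.2-fold were 0 of the 43 genes (6.22% of loci). The 5 lower by 1.2-fold, against 5.51% of loci under the same correction, were Ndufaf4 (-0.53), Ndufb5 (-0.34), Ndufs4 (-0.30), Ndufc1 (-0.29) and Ndufv2 (-0.26). The relation with length was also present between saline groups, where the correlation of length with the difference of saline at 7 d from saline at 2 h was -0.47, against -0.015 for saline at 24 h from saline at 2 h and -0.17 for cocaine at 7 d from cocaine at 2 h. The part of transcript length in the 7 d ratios was not tested.

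**Figure D3:**
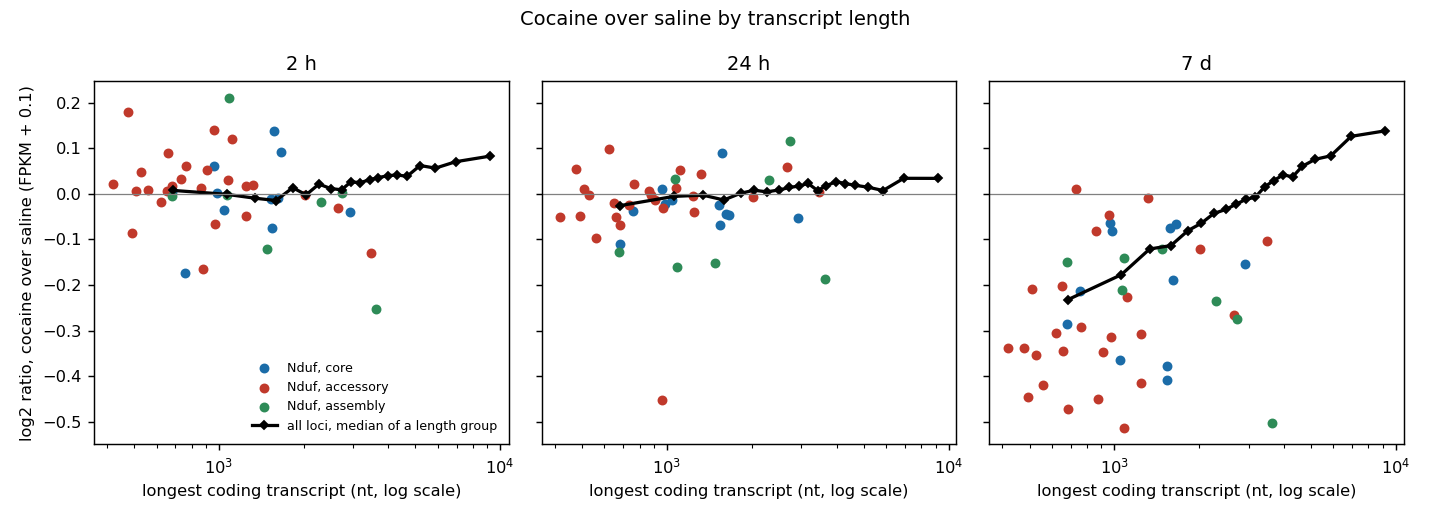
The vertical axis is the log2 ratio of cocaine to saline (FPKM + 0.1) and the horizontal axis the length of the longest coding transcript in nt on a log scale, with 1 panel for each time. Coloured points are the 43 Nduf genes and the black diamonds are medians of all loci in 20 groups of length, which at 7 d rise from -0.23 in the shortest group to 0.14 in the longest, with most Nduf points at or below them.

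The loci behind some values hold more than the named gene. In 13 of the 43 loci another coding gene of RefSeq overlapped the listed interval, such as Phf14 in the locus of Ndufa4 (chr6:11900373-12081197, GRCm38), Mrpl47 and Actl6a in that of Ndufb5 (chr3:32708546-32751566) and Ndufs1 with Eef1b2 and Ino80d (chr1:62958418-63180486). Over the 30 loci with no such overlap, 13 genes were lower by 1.2-fold at 7 d and the median log2 ratio was -0.22. The loci of Ndufc2 (chr7:97400003-97407802), Ndufa5 (chr6:24518666-24528013), Ndufs4 (chr13:114284482-114388261) and Ndufaf4 (chr4:24898083-24905001) were among those 30.

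The remaining genes of complex I were measured in the same tables. Of 13 assembly factors that do not carry the Nduf name, 12 were tested, and none was past 1.2-fold in either direction at any time. All 12 lay below 0 at 7 d, with a median log2 ratio of -0.12 and a range from -0.22 to -0.010. Tmem70, a membrane protein of complex I and ATP synthase assembly, was at 25.9 FPKM in saline and 22.2 in cocaine at 7 d (-0.22), and Ecsit, a member of the membrane arm assembly complex, at 13.9 and 13.8 FPKM (-0.010).

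The complex I genes of mitochondrial DNA were lower in cocaine at 24 h as well as at 7 d. Their 7 genes fall on 6 loci, since mt-Nd4 and mt-Nd4l share one, and all 6 were lower in cocaine by 1.2-fold at 24 h (median log2 ratio -0.35), where 1 of the 43 nuclear genes was. At 2 h 0 of 6 passed the limit (median 0.065), and at 7 d 2 of 6 did, mt-Nd2 and mt-Nd3 (median -0.18). mt-Nd1, the membrane arm subunit at the ubiquinone site, stood at 16297 and 16202 FPKM in saline and cocaine at 2 h, 19463 and 15296 at 24 h, then 19414 and 16999 at 7 d. mt-Nd3 stood at 6209 and 6524 FPKM at 2 h, 6651 and 4981 at 24 h, then 8636 and 6443 at 7 d. For both, the 2 highest of the 6 values were those of saline at 24 h and at 7 d. Glial markers moved in the same direction at 24 h, with 5 of 6 astrocyte markers below 0 (median log2 ratio -0.16, summed level 929 FPKM in saline and 908 in cocaine) and 5 of 6 oligodendrocyte markers below 0 (median -0.16, summed level 691 and 572 FPKM), and their part in the mitochondrial values was not tested. The libraries were made from polyadenylated RNA, and the loci of mitochondrial DNA held between 4.35% and 13.7% of the summed FPKM of a group. In each group 10 loci alone held between 55.4% and 88.5% of that sum. The share is therefore not a measure of the mitochondrial RNA content of a group.

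Genes of the other complexes of the chain were also lower in cocaine at 7 d. Of all loci, 12.5% were lower by 1.2-fold at 7 d and 52.5% lay below 0. In complex III 6 of 9 genes were lower by 1.2-fold at 7 d and all 9 lay below 0 (median log2 ratio -0.29). In complex IV the count was 4 of 9 (median -0.23) and in complex V, the ATP synthase, 6 of 15 (median -0.23). Complex II had 2 of 7, the assembly factors Sdhaf1 and Sdhaf4, while its 4 subunits had ratios from -0.25 for Sdhb to 0.0014 for Sdha (median over the 7 genes -0.19). At 2 h and 24 h none of the genes of complexes II to V reached 1.2-fold, and 0 were higher at 7 d. The values of these complexes were not corrected for transcript length. Over all loci, the shortest length group had a median log2 ratio of -0.23 at 7 d. Saline at 7 d was the highest of the 6 groups in 25.7% of loci. It was the highest in 9 of 9 genes of complex III, 8 of 9 of complex IV, 12 of 15 of complex V and 6 of 7 of complex II. The count was 8 of the 12 assembly factors and 3 of 6 loci of mitochondrial DNA.

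**Figure D4:**
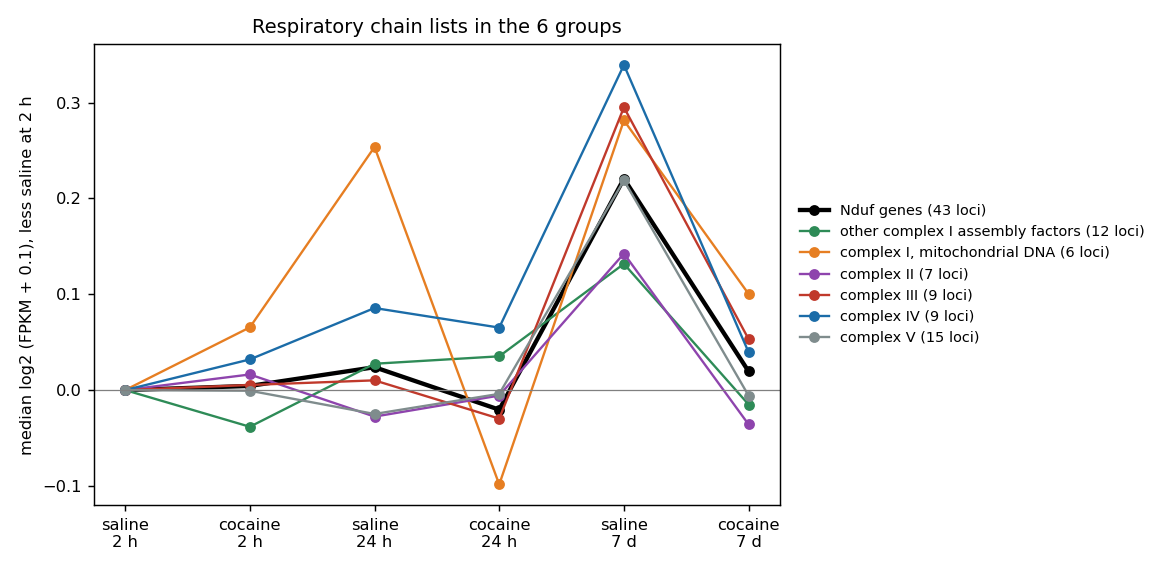
The vertical axis is the median over a list of the log2 of FPKM + 0.1 less its value in saline at 2 h, and the horizontal axis gives the 6 groups. The Nduf median (thick line) stands at 0.22 in saline at 7 d and between -0.020 and 0.024 in the other groups, complexes III, IV and V stand at 0.29, 0.34 and 0.22 in saline at 7 d, and the genes of mitochondrial DNA reach 0.25 in saline at 24 h and 0.28 in saline at 7 d.

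Cell type markers were read as a check of the tissue. The 6 markers of excitatory neurons, which make up most cortical neurons, were all tested in every table, with Slc17a7 between 466 and 532 FPKM, Camk2a between 844 and 1048 and Nrgn between 1637 and 1796. Of 5 choroid plexus markers 1 was tested at 2 h and at 24 h and 3 at 7 d, with a summed level between 0.461 and 7.37 FPKM. Ttr, the choroid plexus marker tested at all 3 times, lay between 0.461 and 1.90 FPKM in the 4 groups at 2 h and 24 h, and at 7 d it was at 0.284 FPKM in saline and 6.54 in cocaine. The part of such tissue in the 7 d ratios was not tested. Of 4 tested striatal markers, Ppp1r1b lay between 46.4 and 57.7 FPKM, and Drd1, Adora2a and Rgs9 lay between 0.648 and 2.41 FPKM. At 7 d, beside the lower Nduf genes in cocaine, the 6 astrocyte markers all lay above 0, 2 of them by 1.2-fold, with a median log2 ratio of 0.14 and a summed level of 830.1 FPKM in saline and 902 in cocaine. The 5 endothelial markers also all lay above 0 (median 0.20, 1 past the limit). Both lists were likewise wholly above 0 at 2 h, where the Nduf median was 0.0043, with medians of 0.16 for astrocytes and 0.13 for endothelium. The medians at 7 d were 0.019 for excitatory neurons, -0.048 for inhibitory neurons, -0.012 for the 2 tested general neuronal markers and 0.0016 for oligodendrocytes. They were 0.079 for microglia, -0.020 for striatum and 0.41 for the 3 choroid plexus markers, which ranged from -0.98 for Folr1 to 4.11 for Ttr. Some of these lists were split. Of the 6 excitatory markers 3 lay below 0, and 1 was lower by 1.2-fold (12.5% of loci), Neurod6 (37.2 and 28.1 FPKM, -0.41). Camk2a was the highest of them (0.24). Of the 4 striatal markers 1 was lower by 1.2-fold (Rgs9, -0.37) and 1 higher (Adora2a, 0.68). No inhibitory, general neuronal, oligodendrocyte or microglial marker reached 1.2-fold. Among markers tested at all 3 times, saline at 7 d was the highest group in 0 of 6 excitatory, 0 of 6 astrocyte and 0 of 5 endothelial markers. The count was 2 of 6 for inhibitory neurons, 1 of 2 for general neuronal markers and 1 of 4 for oligodendrocytes. For microglia it was 2 of 5, for striatum 1 of 4 and for choroid plexus 0 of 1. The share of loci was 25.7%. The part of cell composition in the 7 d ratios was not tested, and in RNA of whole tissue fewer cells of a type and less RNA per cell cannot be told apart.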

How the data were processed

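RNA of prefrontal cortex was sequenced as poly(A) libraries, 2 per group. The processing notes of the submitters name CASAVA 1.8.2, Trimmomatic 0.32, TopHat2 2.0.12, Cufflinks 2.2.1 and Cuffdiff with GRCm38, and the methods of the study name mm9 and an older Cufflinks. The listed intervals of the Nduf loci overlapped the GRCm38.p6 annotation of RefSeq for all 43 genes. The authors deposited 1 table per time point with 1 FPKM per group, pooled over both libraries, and FPKM were compared as deposited. The columns of the authors' own comparison (log2 fold change, test statistic, p-value, q-value, significance flag) were not used. The abbreviated group names in the tables fit either drug, and the first value was read as saline and the second as cocaine, the order in which the study's own column headings give the same values.

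Log2 ratios were computed with a pseudocount of 0.1 FPKM, which understates the change of low genes, over loci with status OK and a mean FPKM of at least 1, using Python 3.11.15, pandas 2.3.3 and numpy 2.4.6. The scripts were tested on simulated data. With 1 value per group no test was possible, and genes were counted past a fold of 1.2. Transcript lengths were those of the longest coding transcript in Gencode vM1. The genes named are the catalytic subunits, the 3 lowest and 2 highest of each class at 7 d, those higher at 7 d, those past the fold at 2 or more times, the 3 largest ratios at 2 h and at 24 h, the 3 highest and 3 lowest levels, and genes on joined rows or several loci. Genes named outside this rule (among them Ndufa6, Ndufa10, Ndufa11, Ndufb6, Ndufc1, Ndufs5 and Ndufs6) were chosen after their values were seen. The members, lists, motifs and fold limit were chosen with earlier results of these data known. The values of 1 catalytic subunit are not reported here by name and are counted only in the totals.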

Additional observations from a re-analysis of the deposited data

How the results depend on the processing

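No paired analysis was possible because the tables hold 1 pooled FPKM per group and no value per replicate, and leaving out a library could not be run for the same reason. At 7 d there were 22 lower genes, 0 higher genes and medians of -0.27 in all, -0.19 core, -0.31 accessory and -0.21 assembly. These stayed within 1.5 times under no pseudocount, a pseudocount of 1 and centring on the median of all loci. They also did so without Ndufa4, Ndufa4l2 and Ndufab1. Taking the locus of highest FPKM could not change them, since the 43 genes had 43 rows at 7 d. Other filters on low values could not either, because they were applied to all loci and not to the Nduf genes. With the length trend taken out, 5 genes were lower at 7 d (5.51% of loci), the median was -0.11 (core -0.053, accessory -0.11, assembly -0.033), the medians at 2 h and 24 h were 0.0018 and -0.0086, and 1 gene was lower at 2 h (6.39% of loci). At a fold limit of 1.5, 0 genes were lower at 7 d (2.44% of loci) and 0 at 24 h (1.66%), and at 1.1, 3 were lower (17.2%) and 3 higher (24.6%) at 2 h and 4 lower at 24 h (15.5%). Centring on all loci gave a median of -0.019 and 1 lower gene at 2 h. Without Ndufa4, Ndufa4l2 and Ndufab1, 0 genes were lower at 24 h.

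Rescaling to the same total of FPKM, which a few loci of extreme value dominate, moved all loci together. It gave 43 higher genes and a median of 0.84 at 2 h, 0 lower and 37 higher genes and a median of 0.35 at 24 h, and 43 lower genes and a median of -1.77 at 7 d (core -1.70, accessory -1.82, assembly -1.72). Leaving out mitochondrial DNA from the total, an alternative chosen after seeing the data, gave the same rounded values. Over loci tested in all 3 tables it shifted the Nduf median relative to saline at 2 h. The values were -1.27 (cocaine 2 h), 0.85 (saline 24 h), -0.23 (cocaine 24 h), -0.91 (saline 7 d) and -0.997 (cocaine 7 d). Without mitochondrial DNA they were -1.32, 0.94, -0.24, -0.92 and -1.06. Saline at 7 d was the highest group in 0 genes both with mitochondrial DNA (0.162% of loci) and without it (0.147%). Median-ratio scaling gave -0.015, 0.00063 and -0.053 for the 2 h and 24 h groups, and 0.038 for cocaine at 7 d. That count of highest groups was likewise added after the levels had been seen. Depth is unknown, so counting error could not be given for genes of low level such as Ndufa4l2 and Ndufaf6.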

Other observations

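Complex I genes that the symbol rule leaves out, because their rows are joined with a neighbour or carry an older name, are given here as values. The row that joins Adck2 and Ndufb2, a membrane arm subunit, stood at 130 and 135 FPKM in saline and cocaine at 2 h, 128 and 119 at 24 h, then 169 and 151 at 7 d (log2 ratio -0.16). The row that joins Gm20538, Ndufb8 and Sec31b stood at 194 and 197 FPKM at 2 h, 193 and 178 at 24 h, then 246 and 207 at 7 d (log2 ratio -0.25). The row named 1810043H04Rik, the older symbol of the assembly factor Ndufaf8, stood at 25.7 and 23.1 FPKM at 2 h, 20.6 and 22.3 at 24 h, then 28.0 and 22.8 at 7 d (log2 ratio -0.29). In all 3 rows saline at 7 d was the highest of the 6 values. At 24 h Ndufv3 was also listed on a second, shorter locus (chr17:31531704-31532594) at 0.440 FPKM in saline and 0.722 in cocaine, beside 98.6 and 105 FPKM on the main locus (chr17:31520115-31531326).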
